A study of Homo sapiens with 4 samples.

Results

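The interferon regulatory factors (IRFs) are a family of transcription factors, and 8 of them, IRF1, IRF2, IRF3, IRF4, IRF5, IRF7, IRF8 and IRF9, were followed here in LNCaP cells with and without exosomes from PC-3 cells. LNCaP is a human prostate cancer line that responds to androgen, PC-3 is a human prostate cancer line that grows without it, and exosomes are small membrane vesicles that cells release. The members were found as all probe sets annotated to exactly 1 gene, that gene being a member. This gave 27 probe sets for 8 genes, among 44988 such probe sets for 18132 genes. A probe set is a group of short probes on the array that together read 1 stretch of transcript. The family was chosen by the difference between exosome and PBS arrays in 1 IRF1 probe set, that is, from this same comparison. The members' differences between the groups are therefore given as a description, with no p-value of a member printed. Where members past a threshold of the fit over all genes are counted, the share of all genes stands beside the count, and nothing is read from it.

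The groups were 2 arrays of LNCaP cells treated with PC-3 exosomes and 2 arrays of LNCaP cells that received PBS, a salt solution. Both were grown in RPMI-1640 with fetal bovine serum. The sample labels give the agent of the control cells as none, and the treatment description gives it as PBS. Whether the 2 arrays of a group came from separate cultures is not stated, so the spread between them may be technical. The description of RNA extraction names a patient's parietal cortex, in conflict with every sample label. KLK3, which encodes prostate-specific antigen, ran from 13847 to 14526 over the 4 arrays and KLK2 from 8088 to 8641. The 10 measured luminal prostate markers summed to 45520 to 46492 on the exosome arrays and 45374 to 45862 on the PBS arrays. The 10 brain markers summed to 1997 to 1998 on the exosome arrays and 1872 to 1960 on the PBS arrays, with GFAP, of astrocytes, at 255 to 299. The array medians lay between 110.8 and 112.5. With 2 arrays a group, precision is limited by their number.

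IRFs share a DNA-binding domain that recognises repeats of GAAA, the interferon-stimulated response element. IRF1 is itself induced by interferon and by inflammatory signals and activates antigen presentation and antiviral genes, while IRF2 competes for the same sites. IRF3, IRF5 and IRF7 wait in the cytoplasm and are activated by phosphorylation when sensors detect viral nucleic acid. IRF9 is the DNA-binding subunit of ISGF3, the complex that carries the signal of type I interferon into the nucleus. IRF4 and IRF8 are best known from lymphoid and myeloid cells, where they act with partners such as PU.1, the product of SPI1.

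IRF1 was read by 4 probe sets, which did not move alike. Probe set 11716733_at read 147 and 145 with exosomes and 76.0 and 77.0 with PBS. Both exosome arrays were far above both PBS arrays, and the arrays of a group differed little. Its mean was 146 ± 1.77 on the exosome arrays and 76.5 ± 0.699 on the PBS arrays (SD, n = 2 each). That is a 1.90-fold difference, or 0.92 on the log2 scale with an SE of 0.080. The SE of each member probe set comes from the fit over all probe sets. A fold here is a ratio of intensity plus 1. In RNA from a whole culture, more transcript per cell and more cells with the transcript cannot be told apart.

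The other IRF1 probe sets were close to level or lower with exosomes. Probe set 11716734_at read 98.9 and 106 with exosomes and 96.1 and 87.2 with PBS, a log2 difference of 0.16 (SE 0.091). The exosome arrays were both above the PBS arrays, with a gap smaller than the spread of either group. Probe set 11754035_a_at read 81.7 and 71.2 with exosomes and 73.4 and 74.0 with PBS, a log2 difference of 0.05 (SE 0.097), and its groups overlapped. Probe set 11761782_at read 91.8 and 82.6 with exosomes and 115 and 92.8 with PBS, a log2 difference of -0.25 (SE 0.12). Here both exosome arrays were below both PBS arrays, the lower PBS array by a small margin. The median over the 4 probe sets was 0.10. On this type of array the ending _at marks probes for a single transcript and _a_at probes shared by several transcripts of 1 gene. Which transcripts each IRF1 probe set reads was not tested.

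**Figure D1:**
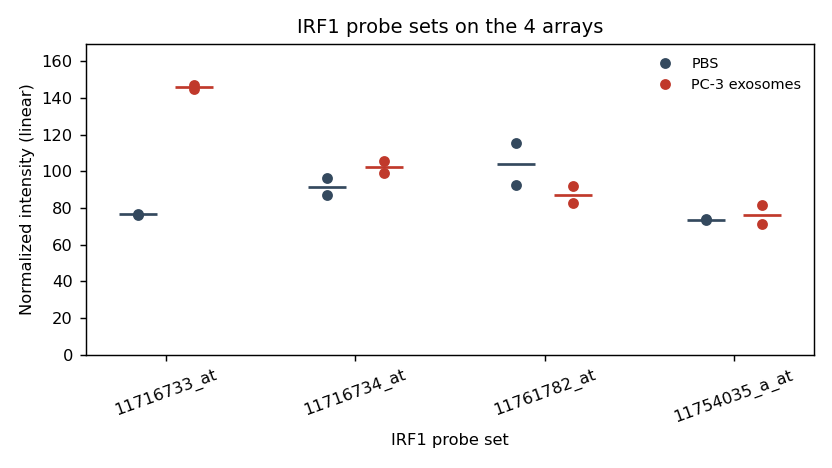
Normalized intensity (linear scale) of the 4 IRF1 probe sets on each array, with PBS in dark grey and PC-3 exosomes in red; points are arrays and bars are group means (n = 2). Probe set 11716733_at read 147 and 145 with exosomes against 76.0 and 77.0 with PBS, and the other 3 stayed between 71.2 and 115 on every array.

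The value reported for IRF1 rests on which probe set stands for the gene. The one with the highest mean over the 4 arrays, 11716733_at, was used, and it is the brightest of the 4 only because of the exosome arrays. On the PBS arrays alone the brightest was 11761782_at, and IRF1 then had a log2 difference of -0.25. That choice was added after the data were seen. Averaged over its 4 probe sets, IRF1 had 0.22. With each of the 4 arrays left out in turn, 11716733_at stayed between 0.91 and 0.94. Its difference was 0.79 when every array was centred on its poly-A spike-ins (RNAs of known sequence added as controls), a scale that lowers all log2 differences by 0.14.

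The promoter of IRF1 is shown for the elements through which interferon and NF-kB are known to act on the gene. It was read from RefSeq's promoter table, 250 bases before and 50 after the start, for 5 of the 8 members (IRF1, IRF4, IRF5, IRF8 and IRF9). Motifs were searched on both strands. The stretch from 130 to 35 bases before the start of IRF1 (GRCh38.p14, chr5:132490808-132490903, minus strand) has in capitals a match to TTCNNNGAA, the site of STAT dimers, and then a match to the NF-kB consensus. The stretch from 69 to 22 bases before the start of IRF9 (GRCh38.p14, chr14:24161196-24161243, plus strand) has in capitals a match to TTCNNNGAA and then a match to GAANNGAAA, a form of the IRF site.
IRF1: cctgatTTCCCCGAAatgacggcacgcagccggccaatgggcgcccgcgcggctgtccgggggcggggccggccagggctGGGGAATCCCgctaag
IRF9: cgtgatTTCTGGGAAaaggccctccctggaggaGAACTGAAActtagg
Of all 35116 promoter windows of 300 bases, 7.66% held TTCNNNGAA, 5.91% the NF-kB consensus and 7.66% GAANNGAAA. Among the 5 members with an entry, TTCNNNGAA was in IRF1 and IRF9, the NF-kB consensus in IRF1, and GAANNGAAA in IRF5, IRF8 and IRF9. The full site GAAANNGAAA, held by 3.57% of all windows, was in none of their 9 windows. A match is a description of the letters in the window and shows no binding.

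IRF2, the competitor of IRF1, had 1 probe set. It read 137 and 154 with exosomes and 124 and 148 with PBS, a log2 difference of 0.10 (SE 0.11) that became -0.04 on the poly-A scale. The groups overlapped, and the arrays of each group lay further apart than the group means of 146 and 136.

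IRF3, the factor that first answers viral nucleic acid, had 6 probe sets, and the groups overlapped in all 6. The brightest, 11718672_x_at, read 410 and 420 with exosomes and 425 and 408 with PBS. Its log2 difference was -0.01 (SE 0.063), within the spread of the arrays. Over the 6 the log2 differences ran from -0.04 to 0.12, with 3 above 0 and 3 below. The highest was that of 11745498_a_at, which read 264 and 304 with exosomes and 275 and 247 with PBS. Of the 6 probe sets 4 end in _x_at, a mark for probes similar to other sequences.

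IRF7, which amplifies the type I interferon response, had 1 probe set. It read 356 and 332 with exosomes and 318 and 308 with PBS. Both exosome arrays were above both PBS arrays, and the means were 344 ± 16.9 and 313 ± 6.96 (SD, n = 2 each). The log2 difference was 0.14 (SE 0.069), and -0.0046 on the poly-A scale.

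IRF5, a factor of inflammatory signalling downstream of Toll-like receptors, had 6 probe sets, and the groups overlapped in all 6. The brightest, 11726686_a_at, read 473 and 436 with exosomes and 471 and 471 with PBS. A single lower exosome array set its log2 difference of -0.05 (SE 0.066). The 6 log2 differences ran from -0.16 to 0.08, with 1 above 0.

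IRF9, the DNA-binding part of ISGF3, was higher with exosomes in 4 of 4 probe sets. Probe set 11720209_at read 427 and 457 with exosomes and 354 and 333 with PBS, with means of 442 ± 21.0 and 343 ± 14.8 (SD, n = 2 each). Both exosome arrays were above both PBS arrays, by more than the spread of either group. The fold was 1.29 and the log2 difference 0.36 (SE 0.070). Probe set 11720208_a_at read 143 and 123 with exosomes and 97.7 and 116 with PBS, a log2 difference of 0.32 (SE 0.11). Its nearest exosome and PBS arrays, at 123 and 116, lay closer together than the arrays within a group.

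The remaining IRF9 probe sets had smaller differences. Probe set 11746155_a_at read 255 and 245 with exosomes and 206 and 227 with PBS, a log2 difference of 0.21 (SE 0.079). Probe set 11746156_x_at read 292 and 288 with exosomes and 258 and 247 with PBS, a log2 difference of 0.20 (SE 0.068). In each of the 4 the exosome arrays did not overlap the PBS arrays. The probe sets of 1 gene were measured on the same 4 arrays and are not replicates of each other. IRF9 as read by 11720209_at stayed between 0.32 and 0.41 with an array left out, and was 0.22 on the poly-A scale and 0.27 as the mean of its probe sets.

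**Figure D2:**
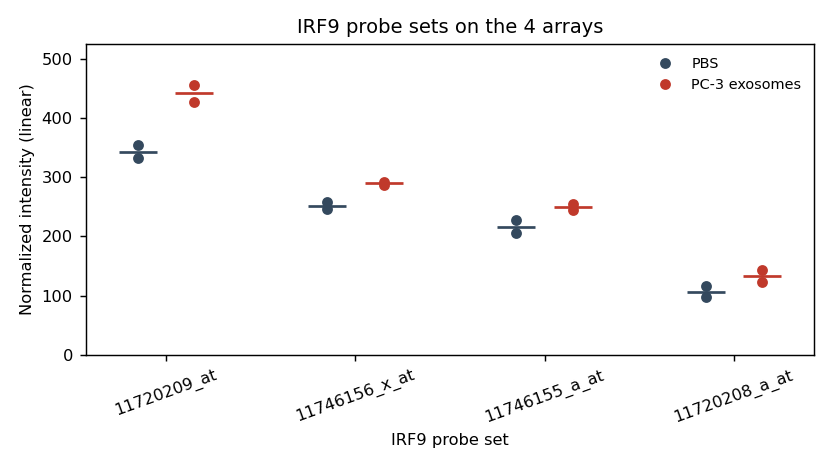
Normalized intensity (linear scale) of the 4 IRF9 probe sets on each array, with PBS in dark grey and PC-3 exosomes in red; points are arrays and bars are group means (n = 2). In each probe set both exosome arrays lie above both PBS arrays, from a log2 difference of 0.20 to one of 0.36.

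IRF4 and IRF8, the lymphoid and myeloid members, showed no common direction. IRF4 had 2 probe sets. Probe set 11717508_at read 33.1 and 37.4 with exosomes and 37.2 and 43.4 with PBS, a log2 difference of -0.19 (SE 0.11), and its groups overlapped. Probe set 11717509_at read 15.5 and 15.6 with exosomes and 14.7 and 15.0 with PBS, a log2 difference of 0.07 (SE 0.066). Background controls, probe sets that match no human transcript, had a median of 18.7 to 19.6 per array, but ran from 10.4 to 3750 with base composition, so that median is no cutoff for a given probe set.

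IRF8 had 3 probe sets with overlapping groups. The brightest, 11717874_a_at, read 111 and 90.6 with exosomes and 103 and 107 with PBS, a log2 difference of -0.07 (SE 0.11). The other 2 had 0.03 and 0.04. SPI1, their partner in myeloid cells, ran from 47.4 to 48.9 and PTPRC, carried by all white blood cells, from 15.0 to 16.1. The 14 measured immune markers summed to 1268 to 1283 on the exosome arrays and 1257 to 1330 on the PBS arrays, with 0 past the threshold and 0 at an unadjusted p under 0.05 in limma.

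**Figure D3:**
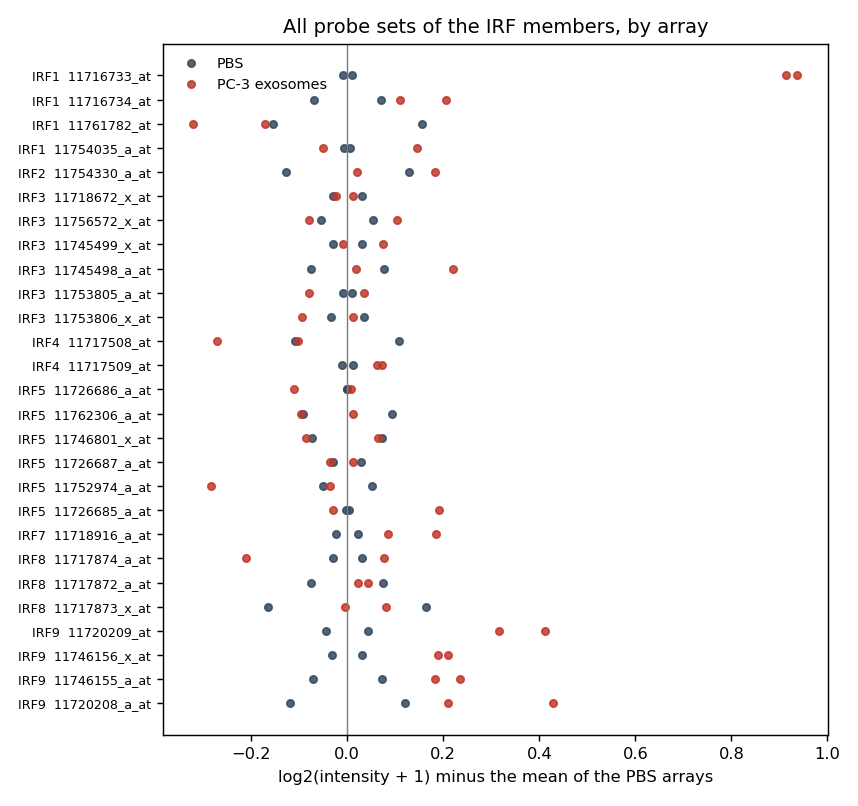
Each of the 27 member probe sets (rows) by array, as log2 of intensity plus 1 minus the mean of its PBS arrays (horizontal axis); PBS arrays are dark grey and exosome arrays red. IRF1 11716733_at stands at about 0.92, the 4 IRF9 rows lie to the right of their PBS arrays, and most other rows overlap.

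Across the family 4 of the 8 genes were above 0 by their brightest probe set, beside 44.0% of all genes. Of the probe sets 16 of the 27 probe sets were above 0 and 11 below, beside 45.8% of all probe sets above 0. The exosome arrays were both higher than the PBS arrays in 8 probe sets: 2 of IRF1, 1 of IRF4, 1 of IRF7 and 4 of IRF9. They were both lower in 1, of IRF1. Over all probe sets the arrays of the groups stood apart in 17.2% on the higher side and 20.5% on the lower side. In a limma fit with the threshold at an adjusted p under 0.05, 1 of the 8 genes was past it as higher (IRF1) and 0 as lower, where 0.700% and 0.188% of all 18132 genes passed. IRF1 was past it in 10 of the 13 alternatives that tested it; it was not as the mean of its probe sets, with the probe set chosen by the PBS arrays or with the replicate number as a block. Members with an unadjusted p under 0.05 were 2 and 0, where 5.76% of all genes were so on the higher side and 5.16% on the lower. Fitted on all probe sets, 1 of the 27 passed as higher (IRF1 11716733_at) and 0 as lower, where 0.238% and 0.0200% of all probe sets did, and at an unadjusted p under 0.05 there were 5 and 0, beside 4.73% and 4.14% of all probe sets. The members were chosen with this contrast known, so nothing is read from these counts.

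**Figure D4:**
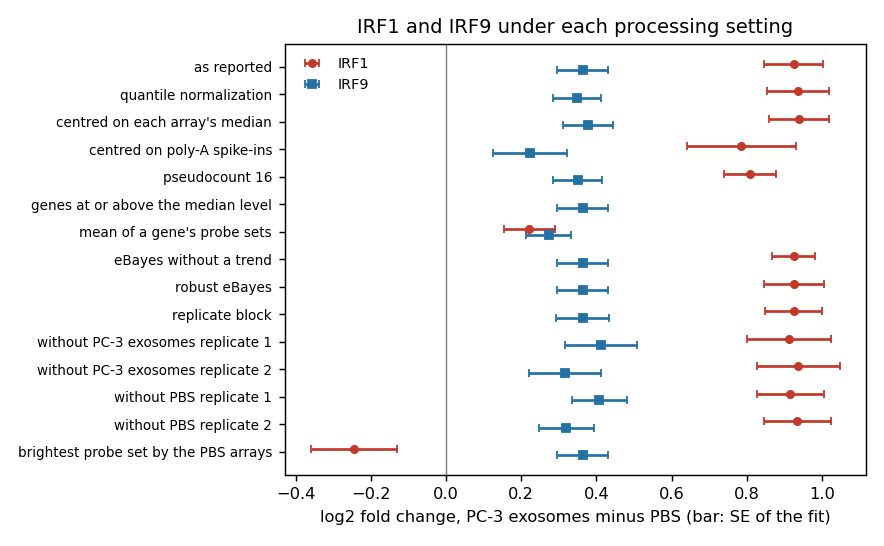
Log2 fold change of IRF1 (red circles) and IRF9 (blue squares) as reported and under each of the 14 other settings (rows), with bars of 1 SE of the fit. IRF1 ran from -0.25, with the brightest probe set taken from the PBS arrays, to 0.94, and IRF9 from 0.22 to 0.41; IRF1 was too dim to enter the fit restricted to the brighter genes.

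The genes around the IRFs were taken from 6 lists of receptors, ligands, sensors, partners and targets, with 164 genes, of which 154 were measured as single genes and none is a member. In limma 10 of the 154 rose and 0 fell at an adjusted p under 0.05, beside 0.700% and 0.188% of all genes. Unadjusted, 40 and 4 had a p under 0.05, beside 1045 and 935 of all 18132 genes. The median log2 fold change was 0.03 over the 154 genes and -0.01 over all genes. With an array left out, 1 to 4 of the 154 passed as higher: 4 without exosome replicate 1, 1 without exosome replicate 2, 3 without PBS replicate 1 and 4 without PBS replicate 2. Centred on the poly-A spike-ins, 7 rose and 0 fell, while the calls over all genes turned from 127 higher and 34 lower to 60 and 326.

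No measured interferon ligand passed the test. Of the 21 listed, IFNA1, IFNA13, IFNL2 and IFNL3 were not measured as single genes. The measured ones read from 11.3 (IFNA10) to 149 (IFNA14), where background controls had a median of 18.7 to 19.6 per array. Of 17 measured interferon genes 0 were past the threshold in limma in either direction, and 1, on the lower side, had an unadjusted p under 0.05. Their log2 fold changes ran from -0.19 to 0.20 with a median of -0.04. IFNA4, a type I interferon, had the smallest p (limma adjusted p = 0.454). Its mean was 24.7 ± 0.922 on the exosome arrays and 28.4 ± 1.69 on the PBS arrays (SD, n = 2 each). IFNA5 had a log2 fold change of 0.20 by its brightest probe set (limma adjusted p = 0.581), with overlapping groups. Its other probe sets had -0.01 and -0.09.

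Among the interferon receptors and the JAK-STAT proteins behind them, 1 of 16 rose and 0 fell, with 3 and 0 at an unadjusted p under 0.05. STAT3, which carries the signal of interleukin-6 family cytokines and can bind TTCNNNGAA, read 1503 and 1539 with exosomes and 1017 and 988 with PBS. Its log2 fold change was 0.60 (SE 0.048, limma adjusted p = 0.0011), and its 3 probe sets ran from 0.43 to 0.60. The replicate block ended its call. STAT3 was past the threshold with each of the 4 arrays left out, at 0.58 to 0.62.

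Of the sensors and kinases that activate IRF3, IRF5 and IRF7, 1 of 26 rose and 0 fell, with 8 and 1 at an unadjusted p under 0.05. IFIH1, the cytoplasmic RNA sensor MDA5, read 115 and 113 with exosomes and 81.6 and 84.7 with PBS (log2 0.45, SE 0.080, limma adjusted p = 0.043). Its second probe set had -0.21, with both exosome arrays below both PBS arrays. The list's median was 0.09. Leaving out any single array ended the call of IFIH1, whose log2 fold change then lay between 0.42 and 0.48. The list also had 0 past the threshold as the mean of probe sets, with centring on poly-A spike-ins, without a trend or with the replicate block.

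Among the partners and cofactors of IRFs 1 of 15 rose and 0 fell, with 2 and 0 at an unadjusted p under 0.05. NFKB1, which encodes the p105 and p50 forms of an NF-kB subunit, read 679 and 671 with exosomes and 552 and 519 with PBS. Its log2 fold change was 0.34 (SE 0.059, limma adjusted p = 0.039), and leaving out any single array ended its call, with values of 0.29 to 0.38. The list had 2 past the threshold with centring on the array medians or among the brighter genes alone, and 0 with centring on poly-A spike-ins, without a trend or with the replicate block.

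Of the genes listed as targets of IRF1, 4 of 38 rose and 0 fell, with 9 and 0 at an unadjusted p under 0.05 and a median of 0.06. Quantile normalization called 7 of them higher, and 0 passed without a trend in eBayes, with the replicate block, without exosome replicate 2 or without PBS replicate 1; 1 passed without exosome replicate 1. CXCL10, a chemokine for T cells, read 311 and 277 with exosomes and 154 and 195 with PBS (log2 0.76, SE 0.11, limma adjusted p = 0.021). TNFSF10, the death ligand TRAIL, read 46.4 and 52.9 with exosomes and 31.4 and 28.7 with PBS (log2 0.71, SE 0.096, limma adjusted p = 0.013). TAP1, which pumps peptides to MHC class I, read 680 and 683 with exosomes and 548 and 535 with PBS (log2 0.33, SE 0.055, limma adjusted p = 0.031). B2M, the light chain of MHC class I, was above 0 in 8 of 8 probe sets, of which 2 hold identical values, at 0.17 to 0.36 (limma adjusted p = 0.029 for the brightest).

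In each of these 4 the exosome arrays were all above the PBS arrays, beside 17.8% of all genes. These 4 were named because they passed as higher, so this adds no support. The log2 fold change of CXCL10 stayed between 0.58 and 0.93 with an array left out, and those of TNFSF10 between 0.61 and 0.80, of TAP1 between 0.31 and 0.35 and of B2M between 0.22 and 0.37. CXCL10 and B2M were past the threshold only without PBS replicate 2, TNFSF10 only without exosome replicate 1, and TAP1 in none of the 4 fits. The other 34 targets were not past the threshold, 20 of them above 0 and 14 below.

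Of the genes listed as targets of ISGF3, 3 of 43 rose and 0 fell, with 18 and 2 at an unadjusted p under 0.05 and a median of 0.09. The count past the threshold was 8 after quantile normalization, 7 with centring on the array medians and 6 among the brighter genes alone, and it was 0 without a trend in eBayes, with the replicate block, without exosome replicate 2 or without PBS replicate 2. PARP9 and DTX3L, which act as a pair in antiviral signalling, had log2 fold changes of 0.58 (SE 0.069) and 0.57 (SE 0.072). PARP9 read 529 and 587 with exosomes and 379 and 364 with PBS, and DTX3L 735 and 778 against 543 and 477. IFI35, an interferon-induced leucine zipper protein, had 0.49 (SE 0.075), at 207 and 196 against 142 and 144. Their limma adjusted p were 0.0075, 0.0097 and 0.021.

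PARP9 was past the threshold only without exosome replicate 1 (0.51 to 0.66 over the 4 fits), DTX3L without replicate 1 of either group (0.48 to 0.66) and IFI35 in none of the 4 (0.45 to 0.53). Probe sets of the same gene again differed: PARP9 ran from 0.08 to 0.58 over 3 and DTX3L from 0.02 to 0.57 over 3. IFI35 ran from 0.24 to 0.49 over 2. The 0.02 of DTX3L came from a dim probe set that read 24.6 to 28.0, and its brighter probe sets had 0.57 and 0.54. The 0.08 of PARP9 came from a probe set that read 309 to 333. The list ran from -0.22 to 0.76, with 31 members above 0 and 12 below.

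**Figure D5:**
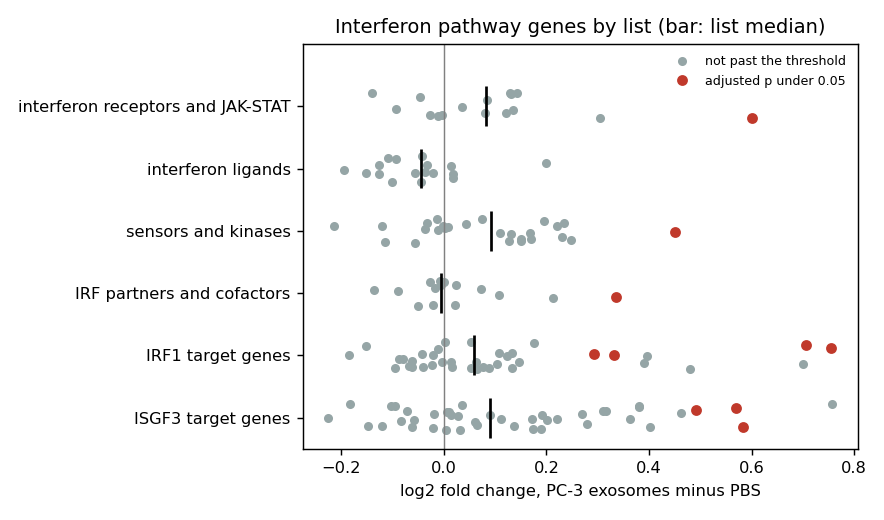
Log2 fold change with PC-3 exosomes (horizontal axis) of every measured gene in the 6 interferon pathway lists (rows); red points passed an adjusted p under 0.05, grey points did not, and black bars are list medians. The ligands lie around -0.04. The genes past the threshold are 4 listed as IRF1 targets, 3 listed as ISGF3 targets, STAT3, IFIH1 and NFKB1. Which factor acts on a listed gene was not tested.

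The IRF site was looked for in the promoters of the 10 pathway genes that rose, all of which have RefSeq entries. GAAANNGAAA was found in 7 of the 10, namely B2M, CXCL10, DTX3L, IFIH1, PARP9, TAP1 and TNFSF10, beside 3.57% of all windows, and the NF-kB consensus in 5, namely B2M, CXCL10, IFIH1, NFKB1 and TAP1. Genes with several start sites have several windows. The lists were drawn up from genes known to answer interferon, so this share is no independent result. DTX3L and PARP9 lie side by side and share the promoter region. In the stretches below capitals mark GAAANNGAAA, GAANNGAAA or the NF-kB consensus on either strand, and positions are counted back from the start. CXCL10 is shown from 227 to 162 (GRCh38.p14, chr4:76023659-76023724, minus strand), TAP1 from 140 to 57 (chr6:32853761-32853844, minus strand), B2M from 150 to 110 (chr15:44711367-44711407, plus strand) and IFIH1 from 32 to 6 (chr2:162318690-162318716, minus strand).
CXCL10: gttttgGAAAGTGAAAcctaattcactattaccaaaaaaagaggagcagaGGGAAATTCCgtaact
TAP1: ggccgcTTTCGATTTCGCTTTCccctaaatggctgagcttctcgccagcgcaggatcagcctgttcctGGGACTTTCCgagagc
B2M: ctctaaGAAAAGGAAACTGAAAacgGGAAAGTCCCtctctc
IFIH1: agaagaGAATCGAAACAGAAAccaaag
In TAP1, B2M and IFIH1 neighbouring matches overlap by several bases and form a longer run, and in CXCL10 the IRF match stands alone.

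The genes whose pattern over the 4 arrays was nearest to IRF1 11716733_at were found by the distance between log2 values, each taken relative to the gene's PBS mean. The nearest was SERPINA3, the protease inhibitor alpha-1-antichymotrypsin, at a distance of 0.054, with 206 and 199 with exosomes and 103 and 110 with PBS. BAMBI, a decoy receptor of the TGF-beta family, followed at 0.065, and LCN2, a siderophore-binding secreted protein, at 0.088. SOX9, a transcription factor of epithelial progenitors, was at 0.14 and CFB, complement factor B, at 0.16. Their log2 fold changes lay between 0.86 and 0.97. With 4 arrays such likeness says little more than that these genes had a similar log2 fold change. Of 3 SOX9 probe sets 2 were above 0, and of 4 CFB probe sets 2.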

How the data were processed

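The deposited values are normalized intensities on a linear scale, 1 per probe set and array, for 4 arrays. Per the submitters' processing notes MAS5 and RMA were used, with no role or version stated; the build of the annotation is not given in the sources used here. At equal rank the arrays differed by at most 0.065 (log2), so no normalization was added. Of 49395 probe sets 102 were controls, 1832 named several genes and 2473 none. Symbols were updated through the Entrez ID for 44961 of the 44988 single-gene probe sets. Each gene was represented by its brightest probe set, by the mean of 4 arrays.

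Log2(intensity + 1) was fitted with limma 3.58.1 in R 4.3.3 (lmFit, eBayes with a trend), exosomes minus PBS, two-sided, Benjamini-Hochberg over 18132 genes, or over 44988 probe sets. The fit has 2 residual degrees of freedom and 7.0 prior ones. An exact permutation test of 2 against 2 cannot go below a p of 0.333. The members, lists and tests were chosen with earlier results of these data known. Named were all members, up to 6 genes past the threshold per list (otherwise the 2 with the smallest p), and the 5 genes nearest to IRF1, without LOC symbols and open reading frames. TAPBP, ATXN1, CUX1, PABPC1L and MIA2 were named after their values were seen. Of the listed genes 10 are not analysed here as single genes. Replicate numbers are unexplained in the labels, so no block was used. Figures were drawn with matplotlib 3.10.9.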

Additional observations from a re-analysis of the deposited data

How the results depend on the processing

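The reported fit called 127 genes higher and 34 lower, and 10 interferon pathway genes higher and 0 lower, with IRF1 at 0.92. The 0 pathway genes lower held in all 14 alternatives. Quantile normalization called 68 genes lower and 18 pathway genes higher, and centring on the array medians called 16 pathway genes higher. Centring on poly-A spike-ins moved the median of all genes from -0.01 to -0.15, called 60 genes higher and 326 lower, and put IRF1 at 0.79. With a pseudocount of 16 IRF1 was at 0.81. Genes at or above the median level, tested alone, gave 213 higher and 84 lower; fewer genes are tested there, and IRF1, IRF2, IRF4 and IRF8 were not among them. As the mean of its probe sets IRF1 was at 0.22. Without a trend in eBayes 18 genes were higher, 3 lower and 1 pathway gene higher; the cause was not tested. With the PBS arrays alone choosing the probe set, a choice made after the data were seen, IRF1 turned to -0.25, because another probe set stood for it. The replicate block called 2 genes higher and 0 lower, and 0 pathway genes higher; it leaves fewer degrees of freedom. Same-numbered arrays did not deviate together (r = -0.040 across genes), so the numbers were not taken as pairs. With an array left out 28 to 40 genes were higher, 4 to 7 lower and 1 to 4 pathway genes higher, and IRF1 lay between 0.91 and 0.94; the lone array is assumed to vary like the other group. IRF9 was above 0 in 14 of 14 alternatives and past the threshold in 4, but not in the reported fit. The alternatives refit the same arrays for a member chosen with this contrast known, so nothing is read from these counts. Depth is not known for intensities, and low readings such as those of IRF4 have no stated detection limit.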

Other observations

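Disagreement between the probe sets of a gene was looked for among the 127 genes higher with exosomes. Of these, 98 had 2 or more probe sets, and in 72 of the 98 all probe sets were above 0. With 4 or more probe sets there were 35 genes. In 9 of the 35, IRF1 among them, exactly 1 probe set passed when every probe set was tested, and in 18 none did. That fit adjusts over 44988 probe sets instead of 18132 genes, so a lost call is by itself no disagreement between probe sets. NFKB1, with 1 probe set, passed over genes (limma adjusted p = 0.039) but not over probe sets (limma adjusted p = 0.115). In 4 of the 35 at most 1 in 2 probe sets was above 0: CFB, CUX1, MIA2 and TAPBP. IRF1 is not among those 4, with 3 of its 4 above 0.

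When the PBS arrays alone chose the brightest probe set, 266 of 18132 genes were read by another probe set. Of the 127 genes 122 remained higher. The 5 that did not were ATXN1, CUX1, IRF1, PABPC1L and TAPBP. In ATXN1, IRF1 and TAPBP the probe set changed and the log2 fold change turned from 0.61 to -0.27, from 0.92 to -0.25 and from 0.57 to -0.03. TAPBP encodes tapasin, which helps load peptides onto MHC class I. In CUX1 and PABPC1L the probe set and its log2 fold change stayed as they were, at 0.35 and 0.27.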
